A study of Mus musculus with 6 samples.

Results

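To describe the strongest accessible regions of the distal forelimb bud that lie away from promoters and differ little between wild-type and Hox13-/- embryos, 849 ATAC-seq peaks were taken from the 61954 peaks of the study. Each of the 849 was in the upper 10% of all peaks by the mean of its 4 library values, had its midpoint more than 1 kb from every transcription start site (TSS) annotated by GENCODE, and had genotype means less than 0.3 apart. The values are regularized log (rLog) read counts per peak on a log2 scale, shrunk towards the mean of each peak. The upper 10% held 6195 peaks, of which 4688 lay within 1 kb of a TSS and 1507 further away. Of those 1507, the 849 described here were under the limit on the difference, and the other 658 were past it, with 541 higher and 117 lower in Hox13-/-. The signal and the stability of the 849 peaks are therefore how they were chosen, and no test was made of either.

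The 4 libraries were made from E11.5 distal forelimb buds of mice on a mixed C57Bl/6 x 129 background. Of these, 2 were wild type (WT) and 2 were Hox13-/-, in which null alleles (Hoxa13Str and Hoxd13lacZ) remove both paralogs. For each library, 50000 cells were taken from both forelimb buds of 1 embryo, pooled. With bulk tissue, a site open in fewer cells and a site less open in each cell cannot be told apart.

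ATAC-seq marks places where the transposase Tn5 can reach DNA. Away from promoters such places are mostly enhancers, which raise the transcription of a gene at a distance, and insulators, where the zinc finger protein CTCF stops cohesin and anchors chromatin loops. HOXA13 and HOXD13, the most posterior HOX factors, drive the digit program of the distal bud and bind AT-rich sites. High signal can also come from sequence that is present in many copies in the genome, such as pericentromeric satellite DNA or tRNA genes, and from nuclear copies of mitochondrial DNA. The mitochondrial genome carries no nucleosomes and is present in many copies per cell, so its reads can pile up on a nuclear copy that has the same letters.

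The sequences that bear on this came from the GRCm38 genome (mm10), with positions counted from 1. First, 5 of the 849 peaks held a stretch alike to mitochondrial DNA. The longest match was at chr12:97061395-97061831, and 150 bases of it (chr12:97061535-97061684, plus strand) are shown above the mitochondrial bases they aligned with (chrM:15782-15931, plus strand). Capitals mark the letters that differ, 1 in each line.
nuclear copy on chromosome 12: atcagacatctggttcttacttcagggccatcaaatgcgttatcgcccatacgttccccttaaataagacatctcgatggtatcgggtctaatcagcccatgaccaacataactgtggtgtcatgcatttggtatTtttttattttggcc
mitochondrial genome: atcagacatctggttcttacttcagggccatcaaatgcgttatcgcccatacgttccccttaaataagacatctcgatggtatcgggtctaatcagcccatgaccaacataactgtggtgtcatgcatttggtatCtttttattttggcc
The least identical of the 5 lay on chromosome 6. Here 150 bases (chr6:9890049-9890198, plus strand) stand above mitochondrial bases 15611 to 15760 on the minus strand, with 10 letters of each line in capitals because they differ.
nuclear copy on chromosome 6: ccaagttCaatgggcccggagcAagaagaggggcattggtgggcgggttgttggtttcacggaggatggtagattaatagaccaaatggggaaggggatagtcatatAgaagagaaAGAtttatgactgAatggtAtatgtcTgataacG
mitochondrial genome, minus strand: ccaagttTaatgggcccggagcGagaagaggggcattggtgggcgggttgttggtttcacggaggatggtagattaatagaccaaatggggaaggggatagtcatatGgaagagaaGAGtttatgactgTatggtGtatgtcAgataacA

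The peak with the highest signal of the 849 (chr9:35305195-35305615) and 19 others shared a short AT-rich repeat. A stretch of the highest peak (chr9:35305246-35305405, plus strand) and a stretch of a peak in the large array near the start of chromosome 9 (chr9:3009357-3009516, plus strand) are shown with a repeated 9-base word in capitals, AAAACTGAA in the first and its reverse complement TTCAGTTTT in the second.
highest peak: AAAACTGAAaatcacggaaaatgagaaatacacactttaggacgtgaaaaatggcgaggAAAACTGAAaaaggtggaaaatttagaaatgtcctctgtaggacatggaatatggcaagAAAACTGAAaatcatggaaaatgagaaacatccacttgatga
array peak: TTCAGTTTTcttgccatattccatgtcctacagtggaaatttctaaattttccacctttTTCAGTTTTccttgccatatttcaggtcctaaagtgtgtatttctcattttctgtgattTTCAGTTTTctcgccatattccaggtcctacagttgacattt

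A further 12 peaks formed a tandem array on chromosome 6. The first of them holds a gene that RefSeq annotates as 4.5S RNA, a short rodent RNA made by RNA polymerase III. The annotation is in capitals, with flanking bases in lower case (chr6:47654906-47655109, minus strand).
4.5S RNA: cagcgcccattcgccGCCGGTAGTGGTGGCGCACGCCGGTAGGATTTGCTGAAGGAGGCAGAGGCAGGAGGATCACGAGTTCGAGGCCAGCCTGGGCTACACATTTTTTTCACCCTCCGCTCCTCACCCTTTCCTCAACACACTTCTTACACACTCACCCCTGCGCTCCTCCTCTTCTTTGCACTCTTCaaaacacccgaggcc

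tRNA genes, which RNA polymerase III also transcribes, lay in 13 of the peaks.

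The core of the CTCF motif is shown in capitals for 3 of the 4 peaks that held it within 100 bp of the midpoint. They lay near Chd2 (chr7:73618490-73618551, minus strand), Fam180a (chr6:35354899-35354960, minus strand) and Oxgr1 (chr14:120138020-120138081, plus strand), named by the nearest protein-coding start site. Those start sites were 76651, 28792 and 95527 bp from the peak midpoints.
near Chd2: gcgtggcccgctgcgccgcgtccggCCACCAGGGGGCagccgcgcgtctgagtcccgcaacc
near Fam180a: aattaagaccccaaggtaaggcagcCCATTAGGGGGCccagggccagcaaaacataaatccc
near Oxgr1: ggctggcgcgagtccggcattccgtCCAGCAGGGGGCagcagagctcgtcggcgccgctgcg

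Last, 2 of the peaks that overlapped transgenic enhancers with limb expression and held a HOX13-type motif, CNATAAA, are shown with the motif in capitals. The first is in an intron of Maml3 (chr3:51739292-51739491, plus strand) and the second is intergenic, nearest to Gm21897 (chr16:15295217-15295416, plus strand, with the motif on the minus strand).
in Maml3: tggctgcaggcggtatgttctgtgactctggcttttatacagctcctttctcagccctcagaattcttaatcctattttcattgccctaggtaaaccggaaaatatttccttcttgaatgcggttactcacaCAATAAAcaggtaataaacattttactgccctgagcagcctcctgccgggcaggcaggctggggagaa
near Gm21897: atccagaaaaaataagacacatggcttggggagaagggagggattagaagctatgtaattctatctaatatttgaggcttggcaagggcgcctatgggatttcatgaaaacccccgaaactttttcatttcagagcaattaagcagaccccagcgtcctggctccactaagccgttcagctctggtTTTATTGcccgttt

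The 849 peaks had a median mean rLog of 7.47, with a range from 7.04 to 15.65. Their median length was 752 bp, against 212 bp for peaks away from start sites outside the upper 10%. The rLog values are per peak and not per length, so long peaks enter the upper 10% more readily. When the mean rLog minus the log2 of the peak length in kb ranked the peaks instead, the same rule gave 1097 peaks with a median length of 495 bp, and 566 of the 849 were among them. The median distance to a TSS was 13233 bp (1016 to 328296 bp). By RefSeq start sites, which include those of tRNA genes, 89 of the 849 (10.5%) lay within 1 kb of one. That held for 4.10% of the strong peaks past the limit and 4.40% of peaks away from start sites outside the upper 10%. Of the 849, 25.1% lay at 1 to 5 kb, 61.5% at 5 to 50 kb and 13.4% beyond 50 kb, and 51.4% were intergenic and 44.3% intronic by their midpoints. In the peak calls of the single libraries, 98.8% of them were found in all 4, against 31.8% of all peaks. The share was 93.9% in the strong peaks past the limit and 99.6% in the strong peaks near start sites. All of these strong peaks were chosen by high signal in the same libraries.

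For each of the 3 limits, the peaks just inside and just outside (with the other limits met) were close. The mean rLog was 7.0403 to 7.0404 inside, near Tjp1, Gm23272 and Col26a1, and 7.0395 to 7.0397 outside, near Rin2, 6430710C18Rik and Vsig8. The distance to a start site was 1016 to 1026 bp inside, near Cacng7, Syt11 and Zdhhc14. It was 956 to 978 bp outside, near Fbxw7, Gm26664 and Gm10715, the last a satellite peak. The differences inside were 0.2993 near Gm47256 and -0.2991 near Arhgef3. Those outside were -0.3010 near Gm9634, 0.3012 near 3930402G23Rik and 0.3016 near Gm45232.

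As a check of the tissue, the strongest peak within 1 kb of a Prrx1 start site, a gene of limb mesenchyme, had a mean rLog of 6.99 and lay 10.4% from the top of all peaks. Msx1, also mesenchymal, had 6.68 and Tbx5, a forelimb gene, 3.87. Kdr, an endothelial gene, had 6.69 and Myod1, a muscle gene, 4.23, and no peak lay within 1 kb of Pitx1 (hindlimb) or Krt14 (ectoderm). The table holds the 19 autosomes, so Gata1, on the X chromosome, could not be looked up. Library medians over all peaks ran from 4.70 to 4.74. The second WT library, in which 27241 of the peaks had been called against 38401 to 45587 in the other libraries, stood apart in the satellite peaks described below.

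Differences between replicates were of the same order as the limit on the genotypes. The median gap between replicates was 0.121 in WT and 0.111 in Hox13-/-, and in 536 of the 849 peaks the genotype difference was under the larger replicate gap. Of the 849, 470 (55.4%) were above 0 in Hox13-/- minus WT, against 49.2% of all peaks. The libraries of the genotypes overlapped in 427 of the 849 peaks. Peaks without overlap, such as some of those named below, were therefore common in the class. Neither this count nor the 536 was taken over all peaks, so nothing is read from either. With limma across all 61954 peaks (adjusted p under 0.05), 13 of the 849 peaks were called, all lower in Hox13-/-. The number and direction moved with the processing, with 5 lower and 88 higher after quantile normalization and 4 lower and 19 higher when the upper 50% of peaks were fitted. Those fits called 18.9% and 26.7% of all the peaks in them. In the main fit 19.7% of all peaks were called, 8.31% lower and 11.4% higher, and nothing is read from the count of 13 because the rule limits the difference. Of the calls over all peaks 57.8% were higher in Hox13-/-, and 46.9% when each library was centred on its median. All 13 called peaks belonged to the satellite group. Over that group the median of Hox13-/- minus WT was -0.259 with all libraries and -0.00985 without the second WT library.

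Sequence in many copies dominated the top of the class. Of the 29 peaks with a mean rLog of 10 or more, 28 were repeated in the genome, alike another peak or matched mitochondrial DNA. This held for 3 of the 6 peaks from 9 to 10, for 20 of the 121 from 8 to 9 and for 36 of the 693 under 8. Repeated here means that at least 50% of the 50-base windows of a peak, the length of the reads, occur more than once in the genome, and alike means an alignment of at least 100 bases at 80% identity or more. Over the 849 peaks, 41 (4.83%) were repeated, against 1.67% of all peaks. The share was 4.41% in the strong peaks past the limit, so it was not particular to the stable peaks. It was 2.35% in the strong peaks near start sites and 1.33% in the weaker peaks away from them. With a library left out the count was 17 to 46, with 17 without the first WT library and 21 without the first Hox13-/- library. Of the 849, 85 aligned to another peak. All 41 were also among the peaks chosen by signal per kb. In 735 of the 849 peaks no window was repeated, no other peak was alike and no mitochondrial match was found. The rest were repeated, alike or mitochondrial (87), or had some, but under 50%, of their windows repeated.

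**Figure D1:**
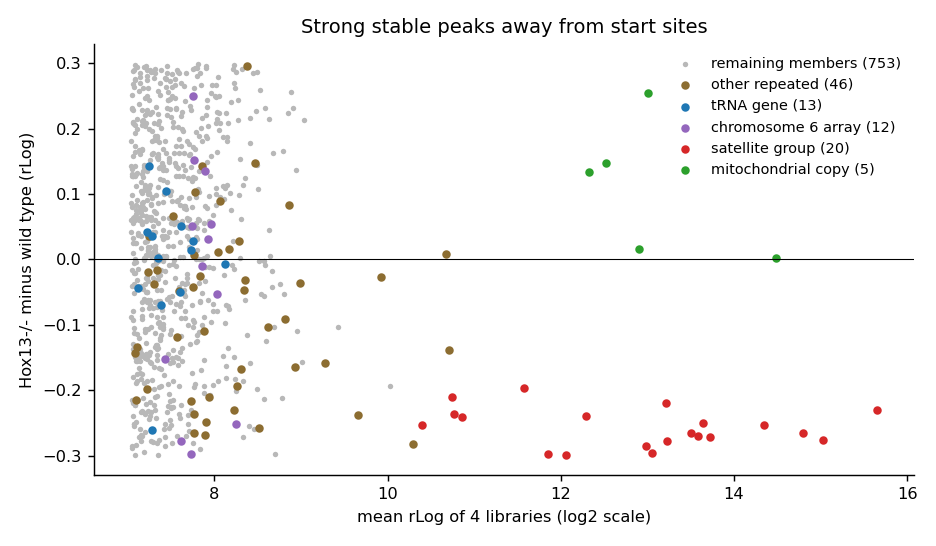
Each point is 1 of the 849 peaks, with the mean rLog of the 4 libraries (log2 scale) across and Hox13-/- minus WT in rLog upwards. Of the 29 peaks at 10 or more, 20 are in the satellite group, all below 0, and the 5 mitochondrial copies are above 0, whereas the bulk of the class lies under 9 on both sides of 0. The range upwards is cut at 0.3 by the rule.

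The satellite group comprised 20 peaks, linked by their alignments, on chromosomes 9, 12 and 14. Of these, 13 lay in chr9:3002027-3022275, near predicted genes such as Gm11168 and Gm10721, and 5 lay in chr14:19415693-19417680, near Gm21738. The remaining ones were chr12:3109838-3110137 and the peak at the top of the class, in an intron 2194 bp from Gm33838. In 8 of the 20 the sequence best matched itself at a shift of 234 bp, the unit length of mouse major satellite, the main pericentromeric repeat. There 47.1% to 78.1% of the bases in the 2000 bp around the midpoint matched. At their best shift, 2 of the 20 reached 75%, and the top peak matched at 31.8%, at 58 bp. No satellite reference was compared here. In all, 86 peaks of the series were alike to the group, and the word shown in capitals above occurred in 85 of the 86 and in 0.633% of all peaks. The word and the group were chosen after values had been seen.

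The top peak had rLog values of 15.52 and 16.01 in WT and 15.69 and 15.38 in Hox13-/-. The next, on chromosome 12, had 14.90 and 15.42 in WT and 15.04 and 14.73 in Hox13-/-. The third, on chromosome 14, had 14.67 and 15.19 in WT and 14.82 and 14.51 in Hox13-/-. Ranks 5 to 10 of the class were satellite peaks as well, with mean rLog from 13.23 to 14.35. In the top 3 the order was the same, with the second WT library highest, the first Hox13-/- library next, then the first WT library, and the second Hox13-/- library lowest, so that the genotypes overlapped.

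That profile ran through the whole family. The second WT library was the highest of the 4 in all 86 peaks, and all 86 were lower in Hox13-/- by the genotype means, by -0.352 to -0.193. The limit of 0.3 therefore cut across 1 family of sequence, with 20 peaks inside it, 6 past it and 60 near annotated start sites. Over the 20, the median of Hox13-/- minus WT was -0.259 with all libraries, -0.00985 without the second WT library and -0.512 without the first. The second WT library exceeded each of the other libraries by at least 0.3 in 24 of the 849 peaks, 18 of them in the satellite group and 21 repeated or alike other peaks. What set this library apart was not tested.

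**Figure D2:**
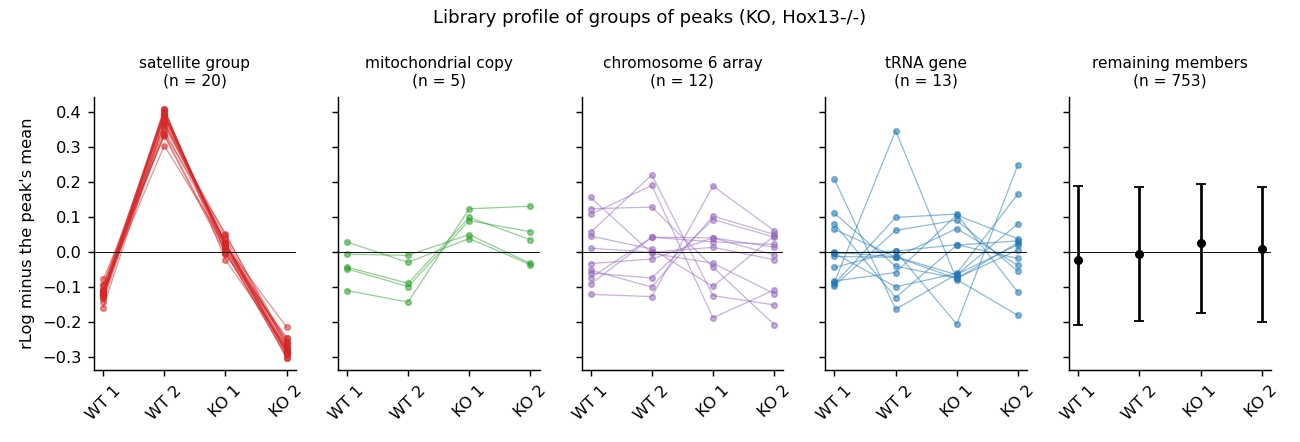
Each panel shows rLog minus the mean of the same peak in the 4 libraries (WT, wild type; KO, Hox13-/-). Lines are single peaks, and for the 753 remaining peaks the points are medians and the bars run from the 5th to the 95th percentile. The 20 satellite peaks share 1 profile with the second WT library at the top.

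Nuclear copies of mitochondrial DNA made up 5 of the 849 peaks, and 16 of all peaks matched the mitochondrial genome. All 16 were in the upper 10%, and the other 11 lay within 1 kb of an annotated start site. Among those was the peak with the highest signal of the series (chr1:24611514-24616207, mean rLog 18.74), 4654 bases of which matched at 99.9%. The copy shown first above, on chromosome 12, matched over 365 bases at 99.7%, in the control region (D-loop). It had rLog values of 14.51 and 14.45 in WT and 14.52 and 14.45 in Hox13-/-, the fourth-highest signal of the class and the smallest genotype difference of the 5. The copy on chromosome 6 that differs most matched over 299 bases at 95.7% and had 12.89 and 12.89 in WT and 12.95 and 12.87 in Hox13-/-.

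The remaining copies lay at chr5:60042784-60043116 (317 bases, 98.1%, over ND2 and tRNA genes), chr10:96077569-96077879 (311 bases, 98.1%, over the large ribosomal RNA gene) and chr2:69355493-69355711 (129 bases, 100%, over ND4 and tRNA genes). The copy on chromosome 10 had the largest difference, with 12.90 and 12.86 in WT and 13.13 and 13.14 in Hox13-/-, and here the genotypes did not overlap. Hox13-/- minus WT was above 0 in all 16 matching peaks (0.00176 to 0.254, median 0.110). The 16 share mitochondrial sequence and are not independent of each other. How reads placed equally well on 2 positions were counted is not given in the sources used here.

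The array on chromosome 6 held 12 of the 849 peaks in chr6:47654843-47772483, spaced 4293 to 4360 bp apart in a first part of 8 and 4353 to 5511 bp apart in a second part of 4. The nearest coding gene was Ezh2, the methyltransferase of Polycomb repressive complex 2, for the first 8 and Pdia4, a protein disulfide isomerase, for the last 4. Between 87.2% and 100% of the windows in each were repeated, with up to 46 copies of a single window. The 4.5S RNA annotation of 174 bases aligned over at least 150 bases at 90% identity or more to 15 peaks of the series, all of them in chr6:47654843-47778719. Of the 15, 10 were among the 849, at 96.1% to 100% identity, and 5 were past the limit on the difference.

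The parts of the array differed in their genotype values. Most windows of the class peaks in the array were repeated and these peaks were alike, so their values are not independent of each other. How reads that fit several units equally well were counted is not given in the sources used here. Whether a value belongs to its own unit was not tested. In the first 8 peaks Hox13-/- minus WT ran from -0.0534 to 0.249. The seventh had the highest signal of them, with 8.07 and 8.03 in WT and 7.93 and 8.07 in Hox13-/-. Then followed 4 matching peaks past the limit at -0.314 to -0.427. In the last 4 of the class it ran from -0.151 to -0.298. The strongest of these had 8.38 and 8.38 in WT and 8.21 and 8.05 in Hox13-/-. The last match, past the limit, was higher in Hox13-/- by 0.325. Ahead of the first array peak by 3.93 kb, a peak with no repeated window (chr6:47650850-47651561) was lower in Hox13-/- by -1.91. The median replicate gaps in the first 8 were 0.0254 in WT and 0.0494 in Hox13-/-. Such gaps do not show from which unit the reads came.

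**Figure D3:**
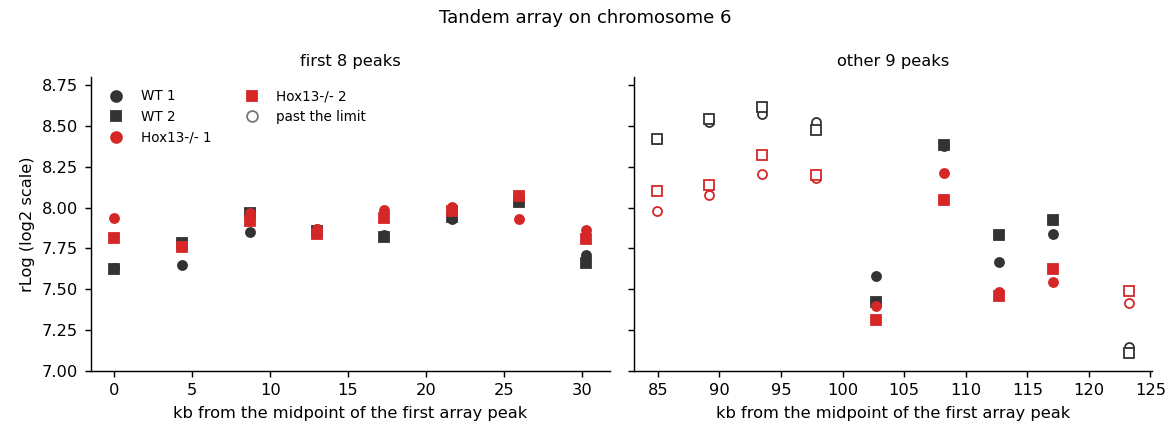
The rLog value of each library (circles and squares, replicates 1 and 2) is plotted for the peaks of the chromosome 6 array against their distance in kb from the first. Filled marks are peaks of the class and open marks are 4.5S RNA peaks past the limit of 0.3. In the first 8 peaks all values lie between 7.62 and 8.07, and from 84.9 to 97.8 kb the WT marks are at 8.42 or above and the Hox13-/- marks at 8.32 or below.

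tRNA genes were a further recurring element, looked for after values had been seen. The 13 peaks covered 19 of 403 tRNA genes annotated by RefSeq, and the midpoints of all 13 lay outside GENCODE gene bodies. The rule used GENCODE start sites, so lying over a RefSeq tRNA gene did not exclude a peak. They were 1.53% of the class, against 0 of the 658 strong peaks past the limit, 0.1999% of weaker peaks away from start sites and 0.234% of all peaks. By signal per kb, tRNA genes lay in 9 of the 1097 peaks (0.82%). The peak with n-TMcat16, near Fam83a, had 7.73 and 7.72 in WT and 7.66 and 7.81 in Hox13-/-. The peak with n-TIaat17 had 7.69 and 7.48 in WT and 7.63 and 7.64 in Hox13-/-. In both the genotypes overlapped.

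Within the class the median size of the genotype difference was 0.0433 in the 13 tRNA peaks and 0.137 in the 849. The rule limits this difference, so nothing is read from these medians. The largest of the 13 was at the peak with n-TNgtt14 near Alox5ap, at -0.261. There the second WT library stood at 7.62 and the others at 7.10 to 7.198. Outside the upper 10% and away from start sites, where the rule did not act, 96.2% of 78 tRNA peaks were under the limit of 0.3, against 73.1% of the 38950 other peaks. Windows of these peaks were mostly single copy, with a median of 2.70% repeated, and their CpG content was high, with a median observed to expected ratio of 0.733 against 0.324 in the class.

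Among peaks with neither a repeated window nor a CTCF motif, the highest (chr14:19416128-19416293) aligned to 70 other peaks and belonged to the satellite group, with 10.65 and 11.11 in WT and 10.78 and 10.50 in Hox13-/-. The next (chr11:109011652-109012069) lay 4209 bp from Gm11668, with Axin2, a Wnt feedback inhibitor, the nearest coding gene at 68239 bp. Its rLog values of 9.89 and 10.37 in WT and 10.09 and 9.78 in Hox13-/- followed the same order of libraries as the satellite group. Next came a peak of 1301 bp in an intron 1714 bp from Clec11a, which encodes a secreted growth factor of the skeleton. It had 9.41 and 9.54 in WT and 9.37 and 9.39 in Hox13-/-. An intronic peak of Slc14a2, a urea transporter gene, had 8.95 and 8.91 in WT and 9.16 and 9.12 in Hox13-/-, which do not overlap. A peak in Sin3a, a gene of a histone deacetylase complex, had 9.06 and 9.13 in WT and 8.91 and 8.96 in Hox13-/-. This peak had the CpG-island-like sequence described below and lay 385 bp from a RefSeq start site.

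Next in the same list was an intergenic peak (chr5:149320019-149321346) 32814 bp from Gm19719, with Alox5ap, a gene of leukotriene synthesis, the nearest coding gene at 33267 bp. It had 9.09 and 8.93 in WT and 8.90 and 8.91 in Hox13-/-, both below both WT values. This peak and the 3 that follow, from further down, were named after their values were seen. A peak 117868 bp from Gm8730, with Cdh11, which encodes a cadherin of mesenchymal cells, the nearest coding gene at 198024 bp, had 8.92 and 8.83 in WT and 9.01 and 9.02 in Hox13-/-. A peak 2769 bp from 1600002D24Rik, with Ets2, which encodes an ETS factor, the nearest coding gene at 130805 bp, had 8.82 and 8.76 in WT and 9.11 and 8.93 in Hox13-/-. A peak in an intron of Tcf7l1, a Wnt pathway repressor gene, had 8.87 and 8.63 in WT and 9.07 and 8.95 in Hox13-/-. In each of these 3 later peaks both Hox13-/- values were above both WT values, by less than the limit. Such separation was common in the class and does not set these peaks apart.

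Enhancers of the VISTA collection, tested as transgenes in mouse embryos and annotated by RefSeq, were the clearest enhancer-like feature. They overlapped 51 of the 849 peaks (6.01%), against 4.26% of the strong peaks past the limit, 1.06% of the weaker peaks away from start sites and 0.864% of all peaks. Elements with limb activity overlapped 32 (3.77%), against 2.89%, 0.430% and 0.381%. Of the peaks over a VISTA element, 62.8% had limb activity in the class, 67.9% among the strong peaks past the limit, 57.1% among the strong peaks near start sites and 40.8% among the weaker peaks away from them. By signal per kb, limb elements lay in 33 of 1097 peaks (3.01%). Among the weaker peaks away from start sites, 65.5% of 168 over limb elements were under the limit on the difference, against 73.2% of 38860 others. In the upper 10% the order was reversed, with 62.75% of 51 against 56.1% of 1456. The annotation holds 620 elements, 174 with limb activity, and these were chosen for testing by other studies. The overlap was examined after values had been seen.

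The strongest limb element was the one in Tcf7l1, active in limb and branchial arch. The element 12356 bp from Chd9, a chromatin remodeller gene, active in limb and nervous tissue, had 8.89 and 8.78 in WT and 8.81 and 8.76 in Hox13-/-. The element near Sorl1, a sorting receptor gene, active in limb and eye, had 8.68 and 8.49 in WT and 8.59 and 8.57 in Hox13-/-. The genotypes overlapped in the latter 2. The Maml3 element shown above (Notch co-activator) had 8.26 and 8.15 in WT and 8.35 and 8.11 in Hox13-/-, and the one near Gm21897 had 7.60 and 7.79 in WT and 7.86 and 7.92 in Hox13-/-. In an intron of Fgfr1, an FGF receptor of limb mesenchyme, an element active in limb, brain and branchial arch had 6.97 and 7.21 in WT and 7.31 and 7.29 in Hox13-/-. The HOX13-type motif lay in the 200 bp around the midpoint of 4 of the 32 limb elements, against 17.8% of the class and 12.8% of all peaks.

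The other 19 elements had no reported limb activity. Those nearest, by coding start sites, to Fos (mean rLog 8.69 at 18432 bp) and Fggy (8.23 at 239189 bp) drove heart expression. Those nearest to Irf2bpl (8.63 at 60222 bp) and Irf2bp2 (8.13 at 72906 bp) drove brain expression. The median difference of the 19 was -0.0138, and that of the 32 limb elements was 0.0730, in a class whose median was 0.0245.

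CpG-island-like sequence, with at least 50% GC and an observed to expected CpG ratio of at least 0.6 over at least 200 bp, marked 142 of the 849 peaks (16.7%). It marked 4.26% of the strong peaks past the limit, 2.55% of the weaker peaks away from start sites and 87.5% of the strong peaks near start sites. These 142 leaned down, with 105 below 0 in Hox13-/- minus WT and a median of -0.105, as did the strong peaks near start sites, with a median of -0.160. Of the 142, 39 lay within 1 kb of a RefSeq start site that GENCODE does not list, 9 held a tRNA gene and 18 were repeated. The motif of SP and KLF factors, GGGCGGGG, lay in the central 200 bp of 36 of them (25.4%), against 6.95% of the class and 22.7% of strong peaks near start sites. The motif holds only G and C and includes a CpG, and the 142 were chosen by GC and CpG content. A share above that of the class therefore follows at least in part from the choice. An example lay 1238 bp from Foxo3, a forkhead factor gene, with 8.79 and 8.92 in WT and 8.47 and 8.64 in Hox13-/-. The genotypes did not overlap there, at a difference of -0.297.

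**Figure D4:**
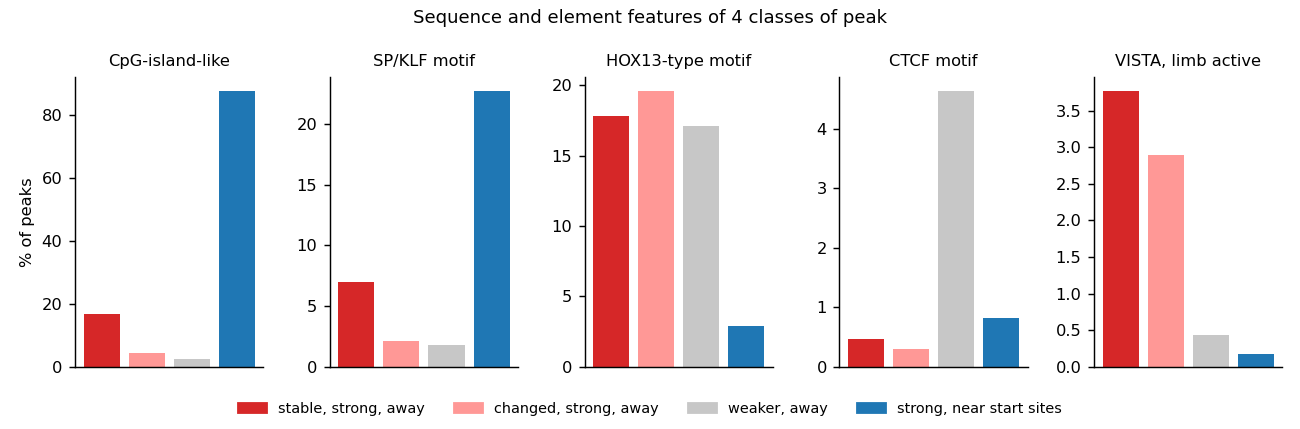
Bars give the percent of peaks with each feature in 4 classes: the 849 stable strong peaks away from start sites, the 658 strong peaks past the limit, the weaker peaks away from start sites and the strong peaks near start sites. Motifs were counted in the central 200 bp. CpG-island-like sequence reached 16.7% in the first class and 87.5% in the last, and the CTCF motif 0.471% in the first against 4.64% in the weaker peaks.

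Insulator-like sequence was rare in the central 200 bp. The CTCF motif lay there in 4 of the 849 peaks (0.471%), against 0.304% of the strong peaks past the limit, 4.64% of the weaker peaks away from start sites and 3.57% of all peaks. Searching the whole peak found 20 (2.36%), against 4.23% of all peaks, and a looser motif found 51. The count depended on peak length, since 55 of the 1097 peaks chosen by signal per kb held the motif (5.01%). When a peak of the class held the motif, it lay at a median of 210 bp from the midpoint, against 307 bp in the strong peaks past the limit, 242 bp in the strong peaks near start sites and 27 bp in the weaker peaks away from them, and 10 of the 20 were on each strand.

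The strongest of the 20, leaving out 1 with over 10% of windows repeated, are named by the nearest coding gene. The first had its motif 447 bp from the midpoint and lay 147843 bp from the start of Mki67 (mean rLog 8.30). The next were nearest to Prr7 (8.16 at 7847 bp), Msrb3 (8.05 at 1333 bp), Mecom (8.02 at 32041 bp) and Chd2 (7.61 at 76651 bp). The peak near Chd2 had 7.65 and 7.69 in WT and 7.64 and 7.46 in Hox13-/-. The peak near Fam180a, with the motif 3 bp from the midpoint, had 7.57 and 7.26 in WT and 7.38 and 7.51 in Hox13-/-, and the genotypes overlapped. Near Oxgr1 the values were 7.37 and 7.21 in WT and 7.42 and 7.24 in Hox13-/-. When the peaks away from start sites were ranked by mean rLog and cut into 10 groups of equal size, the share with the motif was 0.987% in the strongest group, 7.72% in the seventh and 1.65% in the weakest. Away from start sites and outside the upper 10%, 92.8% of the 1809 peaks with the motif in the central 200 bp were under the limit of 0.3, against 72.2% of the 37219 without it there. In the upper 10%, 6 peaks held the motif in the central 200 bp and 4 of them were under the limit. With the motif anywhere in the peak, 46.5% of 43 peaks of the upper 10% were under the limit, against 56.6% of the 1464 without it.

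**Figure D5:**
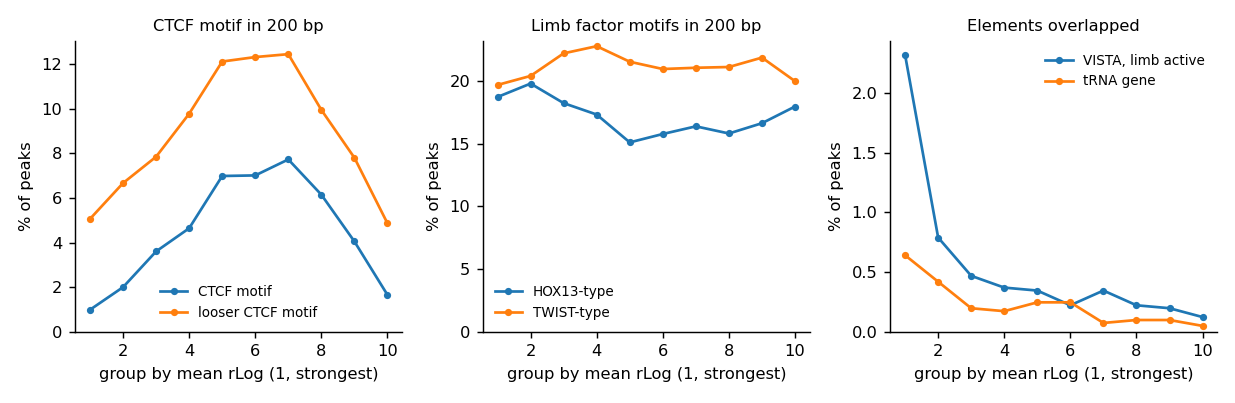
Peaks more than 1 kb from start sites were ranked by mean rLog and cut into 10 groups of equal size (1, strongest). The CTCF motif is highest, at 7.72%, in the seventh group, VISTA limb elements fall from 2.32% to 0.123%, tRNA genes fall from 0.641% to 0.0493%, and the HOX13-type motif stays between 15.1% and 19.8%. Median peak length falls from 641 to 111 bp over the same groups.

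Motifs of limb factors differed between the classes by a few percentage points. The HOX13-type motif CNATAAA lay in the central 200 bp of 17.8%, against 19.6% of the strong peaks past the limit, 17.1% of the weaker peaks away from start sites and 12.8% of all peaks. The TWIST-type motif CATCTG lay in 19.7%, 15.8%, 21.3% and 16.8%, and the TEAD motif GGAATG in 15.7%, 15.2%, 17.0% and 14.0%. For the homeodomain motif TAATTA of LHX and MSX factors the shares were 8.48%, 12.6%, 11.2% and 8.01%. Among peaks away from start sites and outside the upper 10%, 65.9% of 6680 with the HOX13-type motif were under the limit on the difference. The share was 74.7% of the 32348 without it there. In the upper 10% the shares were 53.9% of 280 with the motif and 56.9% of 1227 without it. A match is a description of letters and not of binding.

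Genes near the class included limb regulators in small numbers. By the nearest of all start sites, 9 peaks (1.06%) were assigned to 61 listed patterning genes, against 0.533% of all peaks, 12 (1.41%) to 63 signalling genes, against 0.647%, and 6 (0.707%) to 26 chondrogenic genes, against 0.323%. The strong peaks past the limit had 0.608%, 0.152% and 0.152%, and the weaker peaks away from start sites 0.533%, 0.684% and 0.374%. By the nearest coding start site, looked at after values had been seen, the counts were 16 (1.89%, against 1.38%), 26 (3.06%, against 1.48%) and 8 (0.942%, against 0.633%). By that measure the strong peaks past the limit had 1.82%, 1.98% and 0.456%, and the weaker peaks away from start sites 1.70%, 1.79% and 0.825%. For 44 ubiquitous genes the counts were 2 (0.236%, against 0.145% of all peaks) and 4 (0.471%, against 0.207%). None lay nearest to the 15 listed genes each of muscle, blood or ectoderm by either measure, and 2 lay nearest, by coding start sites, to endothelial genes, Cdh5 and Sox17 (0.236%, against 0.142% of all peaks). Over all peaks, the shares by the nearest of all start sites and by the nearest coding start site were 0.119% and 0.163% for the muscle genes, 0.0387% and 0.110% for the blood genes and 0.0355% and 0.0678% for the ectoderm genes.

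Among patterning genes, Prrx1, which encodes a homeodomain factor of limb mesenchyme, had a peak 1227 bp from its start with 7.45 and 7.38 in WT and 7.58 and 7.78 in Hox13-/-. Its relative Prrx2 had 7.4996 and 7.59 in WT and 7.38 and 7.48 in Hox13-/- at 1643 bp. Tbx15, a T-box gene, had 7.21 and 7.06 in WT and 7.27 and 7.17 in Hox13-/-. Etv5, an ETS gene downstream of FGF signalling, had 7.03 and 7.13 in WT and 7.24 and 7.41 in Hox13-/-. The peaks of Prrx1 and Etv5 were higher in both Hox13-/- libraries than in both WT libraries, that of Prrx2 was lower in both, and at Tbx15 the genotypes overlapped. Tcf4 (mean rLog 7.80 at 1753 bp), Zfhx3 (7.48 at 33331 bp) and Zeb1 (7.12 at 88888 bp), which encode a bHLH and 2 zinc finger factors, completed the list. By coding start sites, distant peaks lay nearest to the Hedgehog effector genes Gli2 (mean rLog 8.58 at 156949 bp) and Gli3 (7.91 at 410220 bp), to the dorsal identity gene Lmx1b (8.41 at 60756 bp) and to Hand2 (7.62 at 310497 bp), which acts upstream of Shh.

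Among signalling genes, Rarb, a retinoic acid receptor, had a peak with 8.13 and 7.97 in WT and 8.19 and 8.28 in Hox13-/- at 20084 bp. Igf1r, the receptor of insulin-like growth factor 1, had 7.89 and 7.69 in WT and 7.83 and 7.87 in Hox13-/-. The peak assigned to Wnt11 was the one with the tRNA genes n-TPtgg8 and n-TPagg7. Bmp7 (mean rLog 7.35 at 6127 bp), Wnt5a (7.31 at 3173 bp), Rarg (7.27 at 1108 bp), the ephrin gene Efna5 (7.27 at 1380 bp) and the Hedgehog co-receptor gene Boc (7.13 at 57640 bp) followed. Gas1, which encodes another Hedgehog co-receptor, was the nearest coding gene of 4 peaks between 66388 and 187835 bp away, with mean rLog from 7.24 to 8.47. Among chondrogenic genes the peaks lay nearest to Sox6 (7.71 at 27073 bp), Trps1 (7.41 at 129118 bp) and Sox5 (7.41 at 55146 bp). Closer ones lay at Scx (7.25 at 4660 bp), Runx3 (7.25 at 12349 bp) and Wwp2 (7.07 at 10499 bp).

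Most genes had 1 such peak. The 849 were nearest to 691 coding genes, 586 of them with 1 and 29 with 3 or more. Leaving the repeated groups aside, Dnm3, a dynamin gene whose antisense transcript Dnm3os carries microRNAs, had the most, with 7 in chr1:161999944-162187979 and differences from -0.281 to 0.289. Auts2, a Polycomb-linked gene, had 5, all above 0 (0.110 to 0.260). The strongest of them had 8.36 and 8.43 in WT and 8.66 and 8.64 in Hox13-/-. Hes1, a Notch target, had 4. The strongest of these, 170206 bp from the Hes1 start, had 8.65 and 8.56 in WT and 8.61 and 8.68 in Hox13-/-. Tenm4, a teneurin gene, also had 4, and Ror2, a Wnt5a receptor, Tead1 and Tle3 had 3 each. Only 74 of the 849 lay within 12.5 kb of another, in 24 clusters, and 775 stood alone. The largest clusters were the satellite peaks on chromosome 9 (13) and the first part of the chromosome 6 array (8).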

How the data were processed

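ATAC-seq libraries of 2 WT and 2 Hox13-/- distal forelimb buds were used. A further 2 proximal libraries, labelled as a Rosa Hoxa11 control, were not analysed here. According to the methods and the submitters' processing notes, 50-base paired reads were aligned to mm10 with Bowtie2 2.3.1, peaks were called in each library against an input with MACS2 2.1.1.20160309 and merged with HOMER 4.9.1. Handling of duplicates, blacklisted regions and the Tn5 offset is not given in the sources used here. The authors deposited rLog values (log2 scale, DESeq2 through HOMER), scaled by size factors and shrunk, so the depth per peak is unknown and no counting intervals are given. The authors also deposited log2 fold changes and p-values of their own comparison, and these were not used. The deposited names of the libraries in which each peak was called were used as given.

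Peaks were chosen by the rule stated in the report, with GENCODE M21 start sites. Genotypes were compared on all peaks with limma 3.58.1 (R 4.3.3; genotype term, variance trend, two-sided, Benjamini-Hochberg). On simulated data 200 of 200 peaks changed by 1.5 (log2) were called, with 14 others. Sequence came from GRCm38.p6, alignments from blastn 2.17.0, and tRNA, 4.5S RNA and VISTA annotation from RefSeq. Motifs were sought on both strands in the 200 bp around the midpoint. The CTCF search found 200 of 200 planted motifs. Mitochondrial matches needed 80% identity over 50 bases. Named peaks were the 10 with the highest signal, all mitochondrial copies, the 5 strongest with a CTCF motif (under 10% of windows repeated) and without one (no window repeated), the strongest per listed limb gene (up to 8 a list) and those at the limits. Others were chosen after their values were seen. Both the class and the gene lists were chosen with earlier results of these data known. Replicates are separate embryos. A peak at the limits and tRNA sequences are not reported here.

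Replicate numbers are shared by the genotypes. The correlation of their replicate differences was -0.0106 over all peaks, so the numbers do not pair the libraries. Alternatives were other limits, start sites, scalings and filters, a replicate block, signal per kb, and leaving out each library.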

Additional observations from a re-analysis of the deposited data

How the results depend on the processing

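The rule gave 849 peaks, 347 with the upper 5% and 2251 with the upper 20% of peaks. Under the other limits, start sites and scalings it gave 585 to 1164, and with each library left out 774 to 834. Signal per kb, chosen after seeing the data, gave 1097. Of the 849, limma called 13. It called 0 without the variance trend (145 at an unadjusted p under 0.05), 22 with median centring, 93 with quantile normalization (5 lower, 88 higher), 23 when the upper 50% of peaks were fitted (4 lower, 19 higher), and 4 to 43 with a library left out, of which 33 lower and 10 higher without the first WT library and 0 lower and 4 higher without the second Hox13-/- library. With the replicate number as a block, limma called 0 (132 at an unadjusted p under 0.05), where 19.3% of all peaks were called. Since the replicate numbers do not pair the libraries, nothing is drawn from this fit. The counts at an unadjusted p were not taken over all peaks. The cause of these shifts was not tested.

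The CTCF motif was held by 4 peaks, by 20 over the whole peak, 51 with a looser motif, 55 of those chosen by signal per kb, and 4 to 5 with a library left out. Repeated peaks numbered 41. They were 20 when over 10 copies were required, 85 when alignment to another peak counted, 103 by signal per kb, and 17 to 46 with a library left out, with 17 without the first WT library and 21 without the first Hox13-/- library. Mitochondrial copies were 5 throughout, tRNA peaks 9 to 13, limb VISTA peaks 27 to 34 and CpG-island-like peaks 130 to 166.

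With 2 libraries a genotype no permutation test can pass 0.05, and rLog values carry no depth, so small differences of single peaks cannot be weighed against counting error.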
